A study of Mus musculus with 12 samples.

Results

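Gene expression was compared between 6 mammary tumours of p66High cells and 6 mammary tumours of p66Low cells, with the difference averaged over tumours of unselected (parental) cells and tumours of selected (aggressive) cells. All 12 of the 12 tumours of the series entered the comparison, and 19370 of the 39017 genes in the count table passed the filter on low counts and were tested. The sections that follow describe which differences between p66High and p66Low tumours were present both before and after selection.

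NIC cells are ErbB2-positive mouse breast cancer cells without p66ShcA, and the p66High cells were made from them to overexpress p66ShcA constitutively. There were 3 tumours in each of 4 groups, the p66Low and p66High tumours of parental cells and the p66Low and p66High tumours of aggressive cells. The aggressive populations had gone through 2 rounds of growth in mouse mammary fat pads before they were explanted into culture, and the submitters describe them as faster growing and more metastatic than the parental cells. Every tumour grew from 250000 cells injected with Matrigel into a mammary fat pad, and the hosts were FVB/N females aged 8 to 12 weeks. All 4 groups share the NIC background, the host strain and the injection site. Each p66 state is 1 engineered population, and each aggressive population derives from the parental population of the same p66 state. The p66ShcA level and any other difference between the p66High and p66Low populations therefore cannot be told apart. The promoter that drives p66ShcA is not given in the sources used here. Whether each tumour had its own mouse is not said in the labels. Tumours 1 and 2 of the p66High parental group share the title number 173, and tumours 1 and 2 of the p66High aggressive group share 185, with L and R after it. What these shared numbers mean is not given, and with such tumours summed 908 genes passed in the parental comparison in place of 1565. The p-values treat all tumours as independent and may be too small if some are not. They reflect the spread among these samples, part of which may be technical, and not variation between engineered populations.

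The Shc1 gene encodes adaptor proteins that bind phosphorylated receptor tyrosine kinases such as ErbB2 and hand the signal on to Grb2, RAS and ERK. The shorter Shc1 isoforms are known as transmitters of mitogenic signals. The longest isoform, p66ShcA, carries an additional N-terminal region that is phosphorylated on serine under stress, and it is known for raising reactive oxygen species in mitochondria, for its part in stress-induced cell death and for its links to the p53 and FOXO pathways.

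Each tumour had between 17.4 and 76.1 M (mega-counts) in total, so that a count of 3 was worth between 0.0394 and 0.156 CPM (a gene's counts for each 1 M counts of its library). Levels below are CPM on scaled libraries, which do not account for gene length, so they are compared between tumours and not between genes. In bulk tumours, fewer cells of a type and less RNA per cell cannot be told apart. The summed level of 9 lymph node stroma genes was 59.0 CPM in p66High parental tumour 3, 196 CPM in p66Low aggressive tumour 1 and 268 CPM in p66Low aggressive tumour 2, while the other 9 tumours had 0.136 to 3.50 CPM. The numbers of genes called, over all genes and in the lists they change, are also given without these 3 libraries, for the lists mostly in the averaged comparison. Without them, p66Low aggressive is a single tumour whose spread is assumed to be that of the other groups. Erbb2, the oncogene that marks the NIC line, lay between 50.6 and 89.6 CPM in the 12 tumours and did not pass the test (log2 difference 0.08, standard error, SE, 0.13, adjusted p = 0.728).

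Shc1 separated the p66High from the p66Low tumours in both states. The p66Low tumours had 65.0, 59.0 and 69.4 CPM (parental) and 61.0, 65.3 and 69.9 CPM (aggressive). The p66High tumours had 271, 234 and 223 CPM (parental) and 237, 246 and 774 CPM (aggressive). The lowest p66High tumour lay above the highest p66Low tumour, and p66High aggressive tumour 3 stood apart from the other 5 p66High tumours. The averaged log2 difference was 2.29 (SE 0.26, edgeR quasi-likelihood adjusted p = 0.000192), and the difference between the 2 states was not past the threshold (interaction 0.77, adjusted p = 0.349). Gene-level counts sum over the Shc1 isoforms, so p66 itself was not measured apart from the shorter ones.

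Averaged over both states, 3030 of the 19370 genes tested (15.6%) passed an adjusted p of 0.05 in edgeR's quasi-likelihood test with Benjamini-Hochberg adjustment. Of these, 1557 were higher (8.04% of the genes tested) and 1473 lower (7.60%) in p66High tumours, and 780 differed at least 2-fold. Within parental tumours alone 1565 genes passed (8.08%), 770 of them higher (3.98%) and 795 lower (4.10%). Within aggressive tumours alone 4077 passed (21.0%), 1728 higher (8.92%) and 2349 lower (12.1%). The averaged value is the mean of these 2 differences, so a gene can pass on the strength of a single state. Of the 3030 genes, 1543 (50.9%) passed with the same sign in aggressive but not in parental tumours, 494 (16.3%) in parental but not in aggressive tumours, and 392 (12.9%) in neither alone. A further 5 passed in both states with opposite signs. The difference between the states, tested as the interaction, was itself past the threshold for 2395 genes (12.4%), among them 735 of the 3030. The parental count was 871 to 960 without any 1 of p66Low parental tumours 1 and 3 and p66High parental tumours 1 and 3, and the aggressive count was 2438 without p66Low aggressive tumour 2. The interaction count was 1179 to 1442 without any 1 of p66Low parental tumour 3, p66High parental tumour 3 and p66Low aggressive tumour 2.

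A core of 596 genes (3.08% of those tested) passed in the averaged, the parental and the aggressive comparison with one sign, and 391 of them were higher and 205 lower in p66High tumours. They made up 38.1% of the parental calls and 14.6% of the aggressive calls. The parental and the aggressive comparison share no tumour, and over all genes tested the 2 differences had the same sign for 48.7%. That share was 68.3% among the parental calls and 52.3% among the aggressive calls. The 6 p66High and the 6 p66Low tumours did not overlap for 510 of the 596 genes, against 1010 of all genes tested (5.21%). The 596 genes were chosen from these same tumours, so their lack of overlap follows largely from that choice and is not a separate result. The 596 genes had a median absolute log2 difference of 0.76, and 196 of them differed at least 2-fold, 72 higher and 124 lower. With the 3 lymph node-rich libraries left out, 1486 genes passed in the averaged comparison and 186 passed in all 3 comparisons, 175 of which were among the 596.

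**Figure D1:**
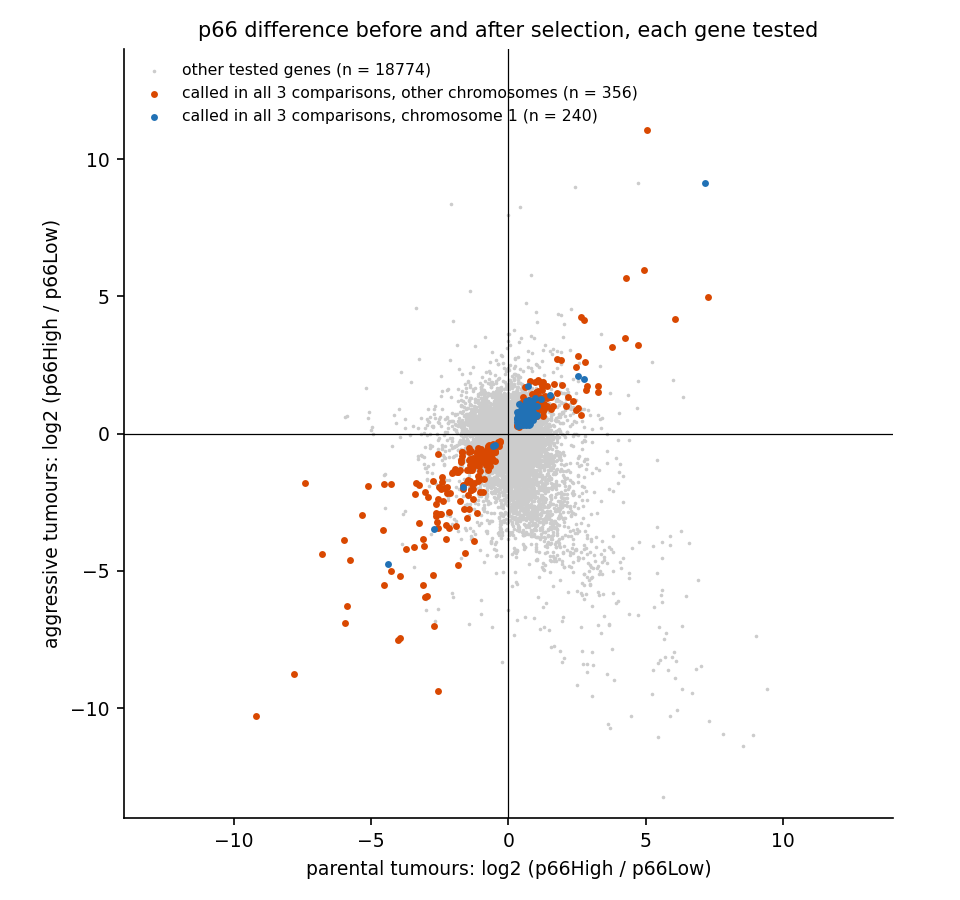
Each point is 1 of the 19370 genes tested, with the log2 difference between p66High and p66Low tumours in parental tumours on the horizontal axis and in aggressive tumours on the vertical axis. The 596 genes that passed in all 3 comparisons lie where both differences have one sign, and the 240 of them on chromosome 1 (blue) mostly cluster at small positive values.

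Genes that were higher in p66High tumours in both states ranged from transcripts near absence in p66Low tumours to small shifts of abundant ones. Most genes named for both states were chosen by a naming rule that required no overlap between the 6 p66High and 6 p66Low tumours. Their lack of overlap is therefore not a result. Brinp3, a gene of a family known from the nervous system, had the largest difference. In p66Low tumours Brinp3 was at 0.783, 1.5 and 0.208 CPM (parental) and 0.208, 0.155 and 0.200 CPM (aggressive). In p66High tumours it was at 116, 129 and 92.4 CPM (parental) and 117, 116 and 76.7 CPM (aggressive). The groups lay far apart, with an averaged log2 difference of 8.15 (SE 0.33, adjusted p = 4e-07). Bspry, which encodes a B-box and SPRY domain protein, was at 0.771 to 4.83 CPM (median 1.08) in the 6 p66Low and 54.4 to 80.8 CPM (median 62.7) in the 6 p66High tumours, a log2 difference of 5.44 (SE 0.35, adjusted p = 1.02e-05).

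Igf2bp2, an RNA-binding protein of the insulin-like growth factor 2 mRNA family, differed in both states and had higher levels in aggressive than in parental tumours. In p66Low tumours its level was 0.162, 0.406 and 0.442 CPM (parental) and 2.50, 4.47 and 5.12 CPM (aggressive). In p66High tumours it was 26.5, 19.4 and 21.1 CPM (parental) and 60.9, 67.7 and 95.2 CPM (aggressive). As the naming rule required, no p66Low tumour reached the level of any p66High tumour. The averaged log2 difference was 5.12 (SE 0.24, adjusted p = 1.02e-06). The difference was smaller in aggressive tumours (4.17) than in parental ones (6.06), with an interaction of -1.90 (adjusted p = 0.0229). The transcription factor gene Sox14 had no count in the 3 p66Low aggressive tumours and 561 counts in the 3 p66High aggressive tumours, at least 327-fold higher against a floor of 3 counts over the group. Its levels in p66High tumours were 1.76 to 3.77 CPM before and 5.56 to 7.27 CPM after selection.

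The other genes among the highest had lower levels or smaller differences. Tmem30b, a subunit of lipid flippases, was at 1.88 to 3.65 CPM in p66Low and 11.6 to 21.7 CPM in p66High tumours (log2 difference 2.70, SE 0.16, adjusted p = 3.96e-06). Mme, which encodes the cell-surface peptidase neprilysin (CD10), was at 16.2 to 99.8 CPM against 138 to 201 CPM, with p66Low aggressive tumours above p66Low parental tumours (log2 difference 1.77, adjusted p = 0.00033). Igfbp4, a secreted binding protein of insulin-like growth factors, was at 40.7 to 140 CPM against 144 to 316 CPM (1.45, adjusted p = 6.88e-05). The log2 difference was 3.46 for Slitrk1, a neuronal adhesion protein, 2.68 for Pdlim4, a cytoskeletal PDZ and LIM protein, 2.45 for the kinase gene Brsk1 and 2.25 for the volume-regulated anion channel subunit gene Lrrc8e. As the naming rule required, the 6 p66High tumours lay above the 6 p66Low tumours for each of these 4 genes. Hs3st3a1, a heparan sulfate sulfotransferase, differed by 3.43, and its neighbour and near relative Hs3st3b1 by 1.52 (adjusted p = 0.000208). Reads shared between these relatives could be split by the counting. Ntrk2, the receptor of brain-derived neurotrophic factor, was at 7.45 to 22.2 CPM in p66Low and 27.0 to 47.4 CPM in p66High tumours (1.41, adjusted p = 0.000205). Hs3st3b1 and Ntrk2 were chosen after their values were seen.

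Several genes were near or at 0 in p66High tumours whatever the state. Tlx3, a homeobox transcription factor gene (chromosome 11, 33200752 to 33203589 on GRCm38), had no count in any p66High tumour. The p66Low tumours had 2.16, 1.14 and 2.05 CPM (parental) and 4.06, 3.47 and 3.85 CPM (aggressive), at least 236-fold higher than in p66High tumours against a floor of 3 counts over the 6 tumours. Ranbp17, a nuclear transport receptor gene that lies next to Tlx3 on the same strand (33211795 to 33513746), was at 16.7 to 26.1 CPM in p66Low and 0.129 to 1.08 CPM in p66High tumours. Its averaged log2 difference was -5.02 (SE 0.25, adjusted p = 1.15e-06). Lack of overlap between the p66 states was a condition for naming both genes.

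Erbb4, a receptor of the ErbB family that binds neuregulins, fell in p66High tumours of both states. The p66Low tumours had 5.97, 6.13 and 4.58 CPM (parental) and 3.23, 0.805 and 1.57 CPM (aggressive). In p66High tumours it was 0.226, 0.387 and 0.210 CPM (parental) and 0.152, 0 and 0 CPM (aggressive). Every p66High tumour lay below every p66Low tumour, as the naming rule required. The averaged log2 difference was -4.57 (SE 0.51, adjusted p = 0.000149). On chromosome X, Bhlhb9 (-3.78), an armadillo-like protein gene, and Tceal8 (-2.71), of the transcription elongation factor A-like family, had levels of 23.6 to 31.8 and 27.6 to 43.8 CPM in p66Low tumours. In p66High tumours they were at 0.431 to 3.01 and 3.88 to 7.39 CPM. Nudt11 and Nudt10 (-3.58), near-identical copies on chromosome X that hydrolyse diphosphoinositol polyphosphates, fell as well, and reads shared between them are uncertain. Nudt11 had 657 counts in p66Low and 2 in p66High aggressive tumours, a ratio of 188 after scaling (95% counting interval 51.8 to 1560).

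Further genes that were lower in both states included the zinc finger genes Zfp612 (-6.42) and Zfp385b (-5.59), the neuronal gene Cntnap2 (-3.50), a contactin-associated protein, and Stac2 (-3.96), an adaptor of calcium channels. The chloride channel family gene Clic6 was at 65.9 to 395 CPM in p66Low tumours, at 64.0, 14.0 and 20.8 CPM in p66High parental and at 0.711, 1.02 and 0.431 CPM in p66High aggressive tumours. The gap was thus larger after selection (interaction -4.31, adjusted p = 0.0164). Among abundant genes, Lalba, the milk protein alpha-lactalbumin, was at 304 to 1230 CPM in p66Low and 110 to 189 CPM in p66High tumours (-2.01, SE 0.18, adjusted p = 4.13e-05). Serpini1, the serine protease inhibitor neuroserpin, was at 27.0 to 58.8 against 1.55 to 11.3 CPM (-3.31). Akr1b8, an aldo-keto reductase, was at 25.2 to 46.7 against 4.86 to 14.6 CPM (-2.23). Cst3, the secreted protease inhibitor cystatin C and chosen after its values were seen, was at 106 to 381 against 47.3 to 88.8 CPM (-1.40, adjusted p = 0.00426). With the 3 lymph node-rich libraries left out Cst3 no longer passed (adjusted p = 0.0559).

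**Figure D2:**
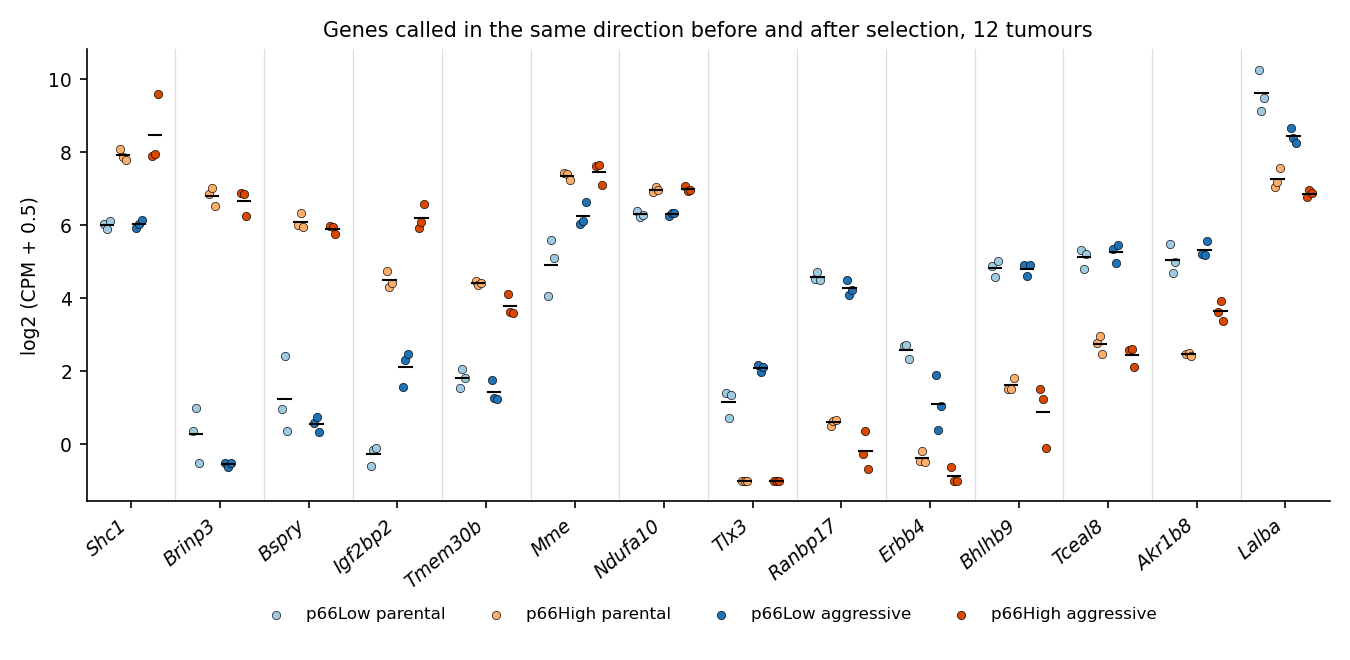
Levels of 14 genes that passed in the averaged, parental and aggressive comparison, as log2 of CPM plus 0.5 on the vertical axis. Each point is 1 tumour, the colours are the 4 groups and the black lines are the means of 3 tumours. The p66High and p66Low tumours do not overlap for any of the 14 genes, which was a condition for naming most of them. Tlx3 lies at the floor in all 6 p66High tumours.

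The genes that passed in all 3 comparisons were unevenly spread over the chromosomes. Chromosome 1 held 235 of the 391 higher genes (60.1%) and 5 of the 205 lower ones, among them Erbb4. Of the 1133 genes tested on chromosome 1, 469 were higher (41.4%) and 33 lower (2.91%) in the averaged comparison, against 5.97% and 7.90% of the 18237 genes tested elsewhere. The median log2 difference of chromosome 1 genes was 0.37 averaged, 0.44 in parental and 0.37 in aggressive tumours, and that of genes elsewhere was -0.03, -0.03 and 0.01. Tumour by tumour, the median of 723 chromosome 1 genes with at least 5 CPM, relative to their mean over 12 tumours, lay between 0.20 and 0.23 in the 6 p66High tumours. In the 6 p66Low tumours it lay between -0.25 and -0.18. The chromosome median thus separated the 12 tumours by p66 state, with a narrow range within each. Of the 240 chromosome 1 genes that passed in all 3 comparisons, 12 differed at least 2-fold, among them Brinp3 (8.15) and Erbb4 (-4.57).

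A second block lay on distal chromosome 4. Between gene starts at 148434495 and 155074110 (GRCm38), 55 of 82 genes tested were lower and 3 higher, and 43 of the 50 chromosome 4 genes that were lower in all 3 comparisons were there. The borders were drawn after the values were seen. The median log2 difference in this stretch was -0.84 averaged, -0.83 in parental and -0.80 in aggressive tumours. Pgd, an enzyme of the pentose phosphate pathway that lies in it and was chosen after its values were seen, was at 107 to 156 CPM in p66Low and 32.8 to 69.2 CPM in p66High tumours (-1.21, adjusted p = 0.0003). Chromosome 15 behaved otherwise. It held 141 genes lower in the averaged comparison (19.7% of 714), but its median was -0.41 in parental and 0.03 in aggressive tumours, and 11 of its genes were lower in all 3 comparisons. Off chromosome 1 and off distal chromosome 4 there remained 312 of the 596 genes, 155 higher and 157 lower, with a median absolute log2 difference of 1.14 against 0.58 for those on chromosome 1.

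**Figure D3:**
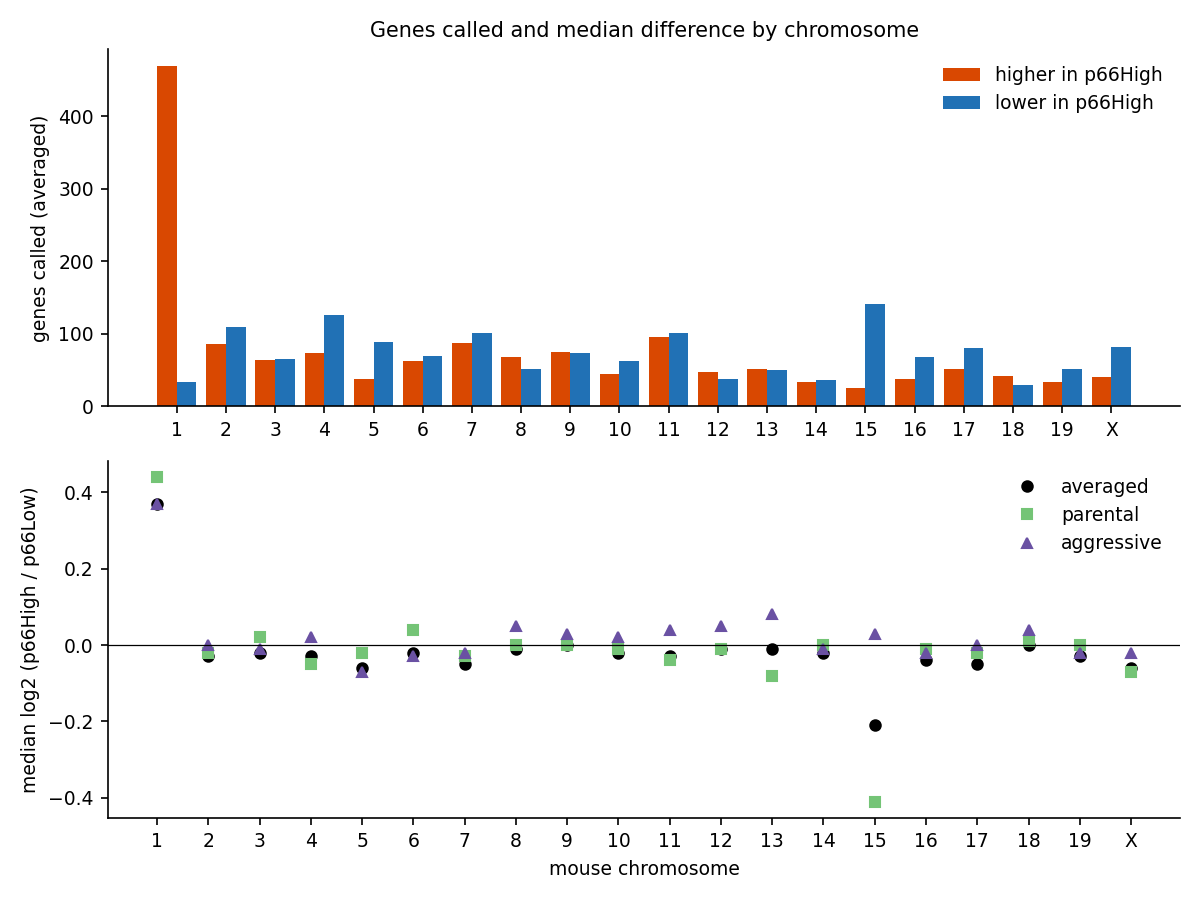
The upper panel gives, for each chromosome, the number of genes that were higher (orange) or lower (blue) in p66High tumours in the averaged comparison. The lower panel gives the median log2 difference of the genes tested, averaged and within each state. Chromosome 1 stands out with 469 higher genes and medians of 0.37 to 0.44, while the median of chromosome 15 is low in parental tumours only among the 2 states.

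Genes of the mitochondrial respiratory chain were examined because p66ShcA is known to act on mitochondrial oxidants. Of 38 nuclear-encoded subunits tested, 8 were higher and 1 lower averaged over the states (7 and 0 in parental, 12 and 2 in aggressive tumours). Of all genes, 15.6% passed averaged, 8.08% in parental and 21.0% in aggressive tumours. Fewer of the subunits passed in aggressive tumours with the lymph node-rich libraries left out, which leaves 1 p66Low aggressive tumour. The averaged median log2 difference of the subunits was 0.12, beside -0.02 over all genes. All 6 tested subunits on chromosome 1 were among the 9 that passed. Ndufa10, a subunit of complex I on chromosome 1, was at 74.4 to 83.4 CPM in p66Low and 120 to 136 CPM in p66High tumours (0.68, SE 0.05, adjusted p = 2.68e-05). Sdhc of complex II, also on chromosome 1, differed by 0.66. Atp5a1, the alpha subunit of ATP synthase on chromosome 18, was at 864 to 1180 CPM against 1540 to 1870 CPM (0.73, adjusted p = 8.75e-05). Of 13 genes encoded by the mitochondrial genome, 0 passed in edgeR, in DESeq2 or in limma-voom, and 0 had an unadjusted p under 0.05, but 4 were higher without p66High parental tumour 2.

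Antioxidant genes passed in both directions averaged over the states. Of 32 NRF2 targets and antioxidant enzymes tested, 2 were higher and 5 lower (21.9%, against 15.6% of all genes), with a median log2 difference of -0.10. With the 3 lymph node-rich libraries left out, 1 was higher and 2 lower. In parental tumours alone 1 of the 32 was higher and 0 lower, and in aggressive tumours 3 were higher and 4 lower. Prdx6 was the 1 gene of the list that passed in the averaged, parental and aggressive comparison with one sign. Prdx6, a peroxiredoxin on chromosome 1, was at 87.1 to 129 CPM in p66Low and 146 to 192 CPM in p66High tumours (0.69, adjusted p = 0.00014). Sod1, the cytosolic superoxide dismutase, was at 49.4 to 57.2 against 27.5 to 48.1 CPM (-0.55, adjusted p = 0.0013), with the larger gap in aggressive tumours (interaction -0.58, adjusted p = 0.048). Gclc, the catalytic subunit of the enzyme that starts glutathione synthesis, was at 42.5 to 53.7 against 35.8 to 42.0 CPM (-0.35, adjusted p = 0.00417). Txn1, thioredoxin, differed by -0.44 (adjusted p = 0.0123), with overlapping groups.

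Genes of ErbB and Shc signalling passed at a share close to that of all genes. Of 24 tested, 1 was higher and 3 lower averaged (16.7%, against 15.6% of all genes), and 3 were higher and 3 lower in aggressive tumours. Besides Erbb4 the lower ones included the ligand gene Egf (-1.54, adjusted p = 0.00327), at 3.43 to 17.0 CPM in p66Low and 1.67 to 4.26 CPM in p66High tumours. Transcriptional outputs of RAS and ERK were higher in 5 of 17 and lower in 0 averaged (29.4%, against 15.6% of all genes), with a median log2 difference of 0.32. In parental tumours 2 were higher and 1 lower (median -0.17), and in aggressive tumours 5 were higher and 0 lower (median 0.49). Of the 17 genes 0 passed in the averaged, parental and aggressive comparison with one sign. Etv1, a transcription factor that ERK signalling induces, was at 117 to 187 CPM in p66Low and 190 to 274 CPM in p66High tumours (0.59, adjusted p = 0.00752). Its relative Etv5 differed by 0.42 and the RAS inhibitor gene Spred1 by 0.34 (adjusted p = 0.0129 and 0.00519). Etv1, Etv5 and Spred1 did not pass in parental tumours alone (edgeR adjusted p = 0.149, 0.362 and 0.238). The ERK phosphatase gene Dusp4 was at 45.3 to 63.0 CPM in p66Low parental, 45.9 to 46.6 CPM in p66High parental and 40.4 to 51.8 CPM in p66High aggressive tumours, but at 11.7 to 18.7 CPM in p66Low aggressive tumours (interaction 1.66, adjusted p = 0.00346). When the 3 libraries rich in lymph node genes were left out, 1 of these 17 genes passed, and Etv1, Etv5 and Spred1 no longer did (adjusted p = 0.0949, 0.143 and 0.0806).

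Interferon genes gave the largest shift of any pathway list in the averaged comparison, and it came from aggressive tumours. Type I interferon response genes are switched on through transcription factors that bind the interferon-stimulated response element. Its core letters, GAAA followed by any 2 bases and another GAAA, were searched on both strands in RefSeq promoter windows (GRCm38.p6) that run from 250 bases before to 50 bases after a gene's start. The letters were present for 11 of the 20 type I list genes with a window (55.0%), 7 of 21 in the interferon gamma and antigen presentation list (33.3%) and 3.89% of the 11479 tested genes with a window. Among genes that passed in all 3 comparisons they were present for 4.12% of 291 higher and 1.35% of 148 lower ones. A match is a description of letters and not a bound site. Stretches before the start are shown for 4 of the genes described next, 5′ to 3′ on the gene's strand, with the matching letters in capitals.
Oas3 (chr5:120777700-120777759, minus strand): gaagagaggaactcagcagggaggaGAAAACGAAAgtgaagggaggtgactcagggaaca
Trim30a (chr7:104465195-104465254, minus strand): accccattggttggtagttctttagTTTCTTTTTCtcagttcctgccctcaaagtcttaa
Cxcl10 (chr5:92349068-92349127, minus strand): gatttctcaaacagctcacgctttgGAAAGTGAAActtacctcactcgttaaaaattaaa
B2m (chr2:122147523-122147582, plus strand): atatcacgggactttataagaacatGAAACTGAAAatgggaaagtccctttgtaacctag
The match begins 75 bases before the start for Oas3, 36 for Trim30a (there on the opposite strand), 213 for Cxcl10 and 139 for B2m.

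Of 28 type I interferon response genes tested, 25 were lower and 0 higher in p66High tumours in the averaged comparison, with a median log2 difference of -1.73 (edgeR, and 28 lower in DESeq2). The edgeR calls were 89.3% of the list, against 15.6% of all genes. In aggressive tumours 28 of 28 were lower (median -3.20). In parental tumours 0 passed in edgeR, in DESeq2 or in limma-voom, 0 had an unadjusted p under 0.05, and the median was -0.23. Oas3, which encodes an RNA sensor that activates RNase L, was at 2.21, 2.44 and 0.572 CPM (p66Low) and 0.947, 0.985 and 0.892 CPM (p66High) in parental tumours. In aggressive tumours it was at 7.24, 21.6 and 29.5 CPM (p66Low) and 0.964, 0.943 and 0.345 CPM (p66High). The p66Low aggressive tumours stood above the other 9, while the parental groups overlapped (averaged -2.77, SE 0.42, adjusted p = 0.00113, interaction -3.79, adjusted p = 0.0158).

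Ifit2 (-1.71), which restrains viral translation, Trim30a (-1.46) and Oas2 (-2.3) showed the same arrangement. Trim30a was at 41.0, 73.6 and 67.2 CPM in p66Low aggressive tumours and between 2.46 and 12.1 CPM in the other 9. The interaction was past the threshold for 19 of the 28 genes, each lower in aggressive tumours (25 in DESeq2 and 14 in limma-voom). Fewer passed the interaction test in edgeR with the 3 lymph node-rich libraries left out, which leaves 1 p66Low aggressive tumour. With the 3 lymph node-rich libraries left out, 17 of the 28 were lower averaged and 28 of 28 in aggressive tumours. A model of p66 and selection with no interaction term, in which the difference between states enters the error, called 3 of the 28 averaged, each lower.

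Of 27 interferon gamma response and antigen presentation genes, 14 were lower and 0 higher averaged (median -1.06), 51.9% against 15.6% of all genes. In aggressive tumours 26 were lower (median -2.73). In parental tumours 0 passed in edgeR, in DESeq2 or in limma-voom, and 2 had an unadjusted p under 0.05 (median 0.48). B2m, the light chain of MHC class I, had 760, 1530 and 2180 CPM in the p66Low aggressive group. Its level was 99.8 to 151 CPM in p66Low parental, 145 to 267 CPM in p66High parental and 79.2 to 235 CPM in p66High aggressive tumours (averaged -1.26, adjusted p = 0.0162). Ciita, the master activator of MHC class II genes, was at 64.1, 74.2 and 67.0 CPM in p66Low aggressive tumours and 5.09 to 15.5 CPM elsewhere (-1.15, adjusted p = 0.0076). Tapbp, the peptide loading protein tapasin, differed by -0.82 and the T cell chemokine gene Cxcl10 by -1.97. The averaged values thus describe neither state of these genes, since the parental differences were -0.70 to 0.60 and the aggressive ones -3.25 to -1.71 for B2m, Ciita, Tapbp and Cxcl10. With the 3 libraries left out, 6 of the 27 were lower averaged, and Cxcl10 did not pass (adjusted p = 0.0529). In the model with no interaction term 0 of the 27 passed, and B2m also did not pass when tumours with a shared title number were summed. The count also fell to 6 to 8 without any 1 of 7 tumours, namely p66Low parental 1 and 2, p66High parental 1 and 2, p66Low aggressive 2 and 3 and p66High aggressive 2. p66Low aggressive tumour 3, which had the highest B2m level of all tumours, had 2.14 CPM of lymph node stroma genes. Its summed T cell and NK cell genes were at 65.9 and 37.0 CPM, and NK cell genes were at 0.73 to 14.7 CPM in p66High tumours. The part of any cell type in the B2m levels was not tested.

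Genes activated by p53 were higher in p66High tumours on average, again through the aggressive tumours. Of 22 tested, 11 were higher and 2 lower averaged (median 0.25), 59.1% against 15.6% of all genes. In aggressive tumours 15 were higher and 1 lower (median 0.84), and in parental tumours 0 were higher and 3 lower (median -0.21). The interaction was past the threshold for 14. Phlda3, an inhibitor of AKT signalling on chromosome 1, was at 35.0 to 46.0 CPM in p66Low parental, 47.6 to 48.1 CPM in p66High parental and 40.6 to 50.7 CPM in p66High aggressive tumours. It was at 8.55, 9.30 and 3.94 CPM in p66Low aggressive tumours, the low group of the 4 (averaged 1.47, adjusted p = 0.000227). Eda2r, a death-domain receptor, had the same arrangement (1.20), as did Ccng1, cyclin G1 (0.46), and Ddit4l (0.94), an inhibitor of mTOR signalling. Cdkn1a, the gene of the p21 inhibitor of cyclin-dependent kinases, chosen after its values were seen, was at 34.1, 56.0 and 37.6 CPM (p66Low) and 16.1, 8.83 and 14.4 CPM (p66High) in parental tumours. After selection the p66Low tumours had 3.33, 3.33 and 5.41 CPM and the p66High tumours 13.3, 15.6 and 26.7 CPM. Cdkn1a was therefore lower with p66 before selection (-1.70, adjusted p = 0.00758) and higher after it (2.18, adjusted p = 0.00133), and its averaged difference was 0.24 (adjusted p = 0.523). Rprm, a p53-induced inhibitor of the G2 phase and also chosen after its values were seen, was 1 of the 2 lower genes (-2.55, adjusted p = 0.0231). It did not pass without p66Low parental tumour 3 or without any 1 p66High parental tumour. Leaving out the 3 libraries rich in lymph node genes gave 5 higher and 0 lower of the 22 genes averaged. In the model with no interaction term 1 was higher.

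Glycolysis genes showed the reverse dependence on state. Of 21 tested, 6 were lower and 0 higher averaged (median -0.36), 28.6% against 15.6% of all genes. In parental tumours 9 were lower (median -0.94), and in aggressive tumours 1 was higher and 1 lower (median 0.23). Ldha, lactate dehydrogenase A, was at 2090, 1440 and 1800 CPM (p66Low) and 720, 651 and 704 CPM (p66High) in parental tumours. In aggressive tumours it was at 1150, 1120 and 1500 CPM (p66Low) and 993, 1230 and 1420 CPM (p66High), where the groups overlapped. Its difference was -1.36 (adjusted p = 0.0011) before and -0.05 (adjusted p = 0.877) after selection, with an interaction of 1.31 (adjusted p = 0.00906). Eno1, enolase (-1.15), which lies in the distal chromosome 4 stretch, and Hk1, a hexokinase (-0.52), followed the same order. Pfkfb4, which makes the glycolytic activator fructose-2,6-bisphosphate, went the other way, with -0.44 in parental and -2.06 in aggressive tumours. The 6 calls became 10, each lower, without p66High aggressive tumour 3, and 4 with the 3 libraries rich in lymph node genes left out. In the model with no interaction term 2 were lower, and Ldha and Hk1 did not pass (adjusted p = 0.0826 and 0.0754).

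Of 20 hypoxia response genes, 1 was higher and 1 lower averaged, 3 were lower in parental and 2 higher in aggressive tumours. Car9, a carbonic anhydrase known as a marker of low oxygen, was the lower one (-1.44, adjusted p = 0.00667), with 38.3 to 62.2 CPM against 6.97 to 7.80 CPM in parental tumours and 43.8 to 88.0 CPM against 25.8 to 98.6 CPM in aggressive tumours. Mxi1, an antagonist of MYC, was the higher one (0.52, adjusted p = 0.031), and it did not pass without any 1 of 7 tumours, namely p66Low parental 1, 2 and 3, p66High parental 1 and 2 and p66Low aggressive 1 and 2. Without p66High aggressive tumour 3, 1 gene of this list was higher and 8 lower, and with the 3 lymph node-rich libraries left out 0 were higher and 2 lower. Vegfa, chosen after its values were seen, differed by -0.47 (adjusted p = 0.488), and it passed without p66High aggressive tumour 3 (adjusted p = 0.0487), where it was at 1140 CPM.

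**Figure D4:**
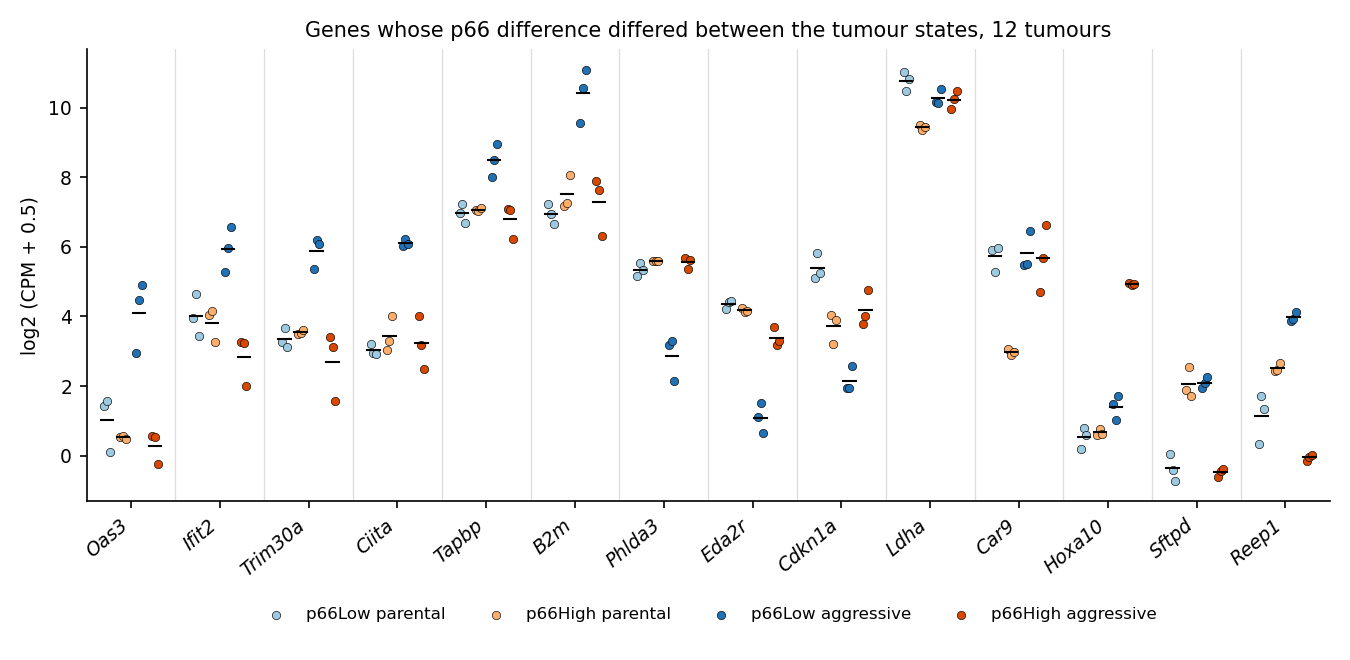
Levels of 14 genes as log2 of CPM plus 0.5 on the vertical axis, with 1 point per tumour, colours for the 4 groups and black lines for the means of 3 tumours. The interferon and antigen presentation genes (Oas3 to B2m) are high in p66Low aggressive tumours, Phlda3 and Eda2r are low there, Ldha and Car9 are low in p66High parental tumours, and Sftpd and Reep1 change order between the states.

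Among inflammatory genes the neutrophil chemokines differed from the rest of their list. Of the 23 genes tested in the NF-kB and inflammation list, 2 were higher and 7 lower averaged (median -0.35), 39.1% against 15.6% of all genes. Cxcl5 passed in all 3 comparisons, at 0.162 to 0.270 CPM against 0.422 to 0.789 CPM in parental and 1.33 to 2.66 CPM against 5.70 to 6.32 CPM in aggressive tumours (averaged 1.57, adjusted p = 0.000956). Cxcl1 was at 0.756 to 4.61 CPM in p66Low and 4.70 to 6.30 CPM in p66High tumours (1.32, adjusted p = 0.00139). The cytokine gene Il1b (-1.26) and the NF-kB subunit gene Relb (-0.51) were lower, with parental differences of -0.06 and 0.25. Without p66High parental tumour 1 there were 2 higher and 3 lower, and without p66Low aggressive tumour 2 there were 3 higher and 2 lower. With the 3 libraries left out, 3 genes were higher and 1 lower. Complement genes were lower in 4 of 17 averaged and in 12 of 17 aggressive comparisons, among them the factor B gene Cfb (-1.48) and the decay-accelerating factor gene Cd55 (-0.78), and 0 of 17 passed in edgeR with the 3 libraries left out. Without p66Low aggressive tumour 3 there were 7. The 4 averaged complement calls were 23.5% of the list, against 15.6% of all genes, and 12.1% of all genes were lower in aggressive tumours. Mmp9, a gelatinase, was at 0.810 to 3.25 against 0.259 to 0.722 CPM (-1.57, adjusted p = 0.00154). It was 1 of 3 metalloproteinase genes that were lower out of 14 (21.4%, against 15.6% of all genes in either direction).

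Hox genes, which set position along the body axis, passed at a share close to that of all genes. Of 25 tested, 4 were higher and 0 lower averaged, beside 15.6% of all genes, all of them in the HoxA cluster on chromosome 6, and 3 were higher with the 3 libraries left out. Hoxa10 was at 0.648 to 1.22 CPM in parental tumours of both p66 states, 1.55 to 2.78 CPM in p66Low aggressive and 29.3 to 30.5 CPM in p66High aggressive tumours (averaged 1.97, interaction 3.57, adjusted p = 0.000761). Hoxa9 (1.85) had the same arrangement. Hoxa11 had no count in the 6 p66Low tumours and 152 counts in the 6 p66High tumours, at least 54.3-fold higher against a floor of 3 counts over the 6 tumours, and 140 of those counts were in aggressive tumours. Hoxa3 differed alike in both states, by 0.66 and 0.78, from 2.3 to 3.40 CPM in p66Low to 3.94 to 6.21 CPM in p66High tumours (averaged 0.72, adjusted p = 0.00311). In the Wnt pathway list 4 of 16 were higher and 0 lower averaged, beside 15.6% of all genes in either direction. In parental tumours 2 of the list were higher and 0 lower, and in aggressive tumours 2 were higher and 4 lower. Wif1, a secreted Wnt inhibitor, was at 0.054 to 4.51 against 6.60 to 13.6 CPM (2.87, adjusted p = 0.000857), and Dkk2, another secreted antagonist, differed by 1.33 in parental and 1.38 in aggressive tumours. The Wnt-associated stem cell receptor gene Lgr5 (1.18) also passed. Dkk2 was the 1 gene of the list that passed in the averaged, parental and aggressive comparison with one sign. Without p66Low aggressive tumour 3, 4 of the list were higher and 3 lower, and with the 3 libraries left out 2 were higher and 1 lower.

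Ribosomal protein genes were higher in 8 of 34 and lower in 1 averaged (26.5%, against 15.6% of all genes), with a median of 0.20. In parental tumours 1 was higher and 1 lower (median 0.02), and in aggressive tumours 18 were higher and 0 lower (median 0.43), where 8.92% of all genes were higher. Fewer of the list were higher in aggressive tumours with the 3 lymph node-rich libraries left out, which leaves 1 p66Low aggressive tumour. Rpl7 was the 1 gene of the list that passed in the averaged, parental and aggressive comparison with one sign. Rpl7, on chromosome 1, was at 435 to 681 against 744 to 1210 CPM (0.74), and Rpl22, in the distal chromosome 4 stretch, at 240 to 330 against 164 to 240 CPM (-0.51). The 9 calls became 2 with the 3 libraries left out, and 4 or 5 without any 1 of 8 tumours, namely p66Low parental 1 and 2, p66High parental 2 and 3, p66Low aggressive 1 and 3 and p66High aggressive 2 and 3. Of 26 matrix genes 2 passed (7.69%, against 15.6% of all genes), the type IV collagen chains Col4a1 (0.53) and Col4a2 (0.48). These 2 genes overlap at their starts on opposite strands. Col4a2 did not pass without p66Low parental tumour 1 or 3 or p66High parental tumour 1. A total of 11 matrix genes were higher with the 3 libraries left out, and 4 passed without p66Low aggressive tumour 2 or p66High aggressive tumour 2. Of 11 milk protein genes 2 were lower (18.2%, close to the 15.6% of all genes), Lalba and Wap, whey acidic protein. Wap was at 0.431 to 0.746 CPM in p66High aggressive tumours and 4.69 to 17.9 CPM in the other 9 (averaged -2.13). Of 18 ATF4 targets 1 was higher and 3 lower (22.2%, against 15.6% of all genes). Among the lower ones were the asparagine synthetase gene Asns (-0.76, past the threshold in both states) and the cystathionase gene Cth (-0.97). With the 3 libraries left out 0 were higher and 1 lower, and Cth did not pass (adjusted p = 0.103). FOXO targets were higher in 3 of 17 (17.6%, close to the 15.6% of all genes), among them the DNA damage gene Gadd45a (0.82) and the cell death gene Bcl2l11 (0.76). There were 6 without p66Low parental tumour 2, 4 higher and 1 lower without p66Low aggressive tumour 3, and 1 with the 3 libraries left out. YAP and TEAD targets were higher in 4 of 18 and lower in 1 averaged (27.8%, against 15.6% of all genes). In parental tumours 3 were higher and 1 lower, and in aggressive tumours 2 were higher and 5 lower. Amotl1 (0.39), an angiomotin family member, differed by 0.38 and 0.41 in the 2 states, Nt5e (0.80), an ecto-nucleotidase, differed by 1.79 in parental and -0.19 in aggressive tumours (interaction -1.98, adjusted p = 0.00319), Nuak2 differed by 0.50, and Ankrd1 was the lower one (-1.49). With the 3 libraries left out 2 were higher and 1 lower. Of 21 epithelial-mesenchymal genes Twist1 (0.46) was higher and Cdh2 (-1.19) and Cldn3 (-1.27) lower averaged (14.3%, close to the 15.6% of all genes). Twist1, Cdh2 and Cldn3 did not pass in parental tumours alone (edgeR adjusted p = 0.899, 0.0967 and 0.832). Averaged, 5 of the list passed without p66Low parental tumour 2. Leaving out the 3 libraries gave 0 higher and 1 lower, and Twist1 and Cdh2 did not pass (adjusted p = 0.0529 and 0.101). The model with no interaction term called 0 complement and 0 hypoxia response genes, 2 higher and 0 lower NF-kB and inflammatory genes, 3 higher and 1 lower ribosomal protein genes, and 0 higher and 1 lower epithelial-mesenchymal genes. Of 28 cell cycle genes 0 passed in edgeR, 1 in DESeq2 and 0 in limma-voom, and 1 had an unadjusted p under 0.05.

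**Figure D5:**
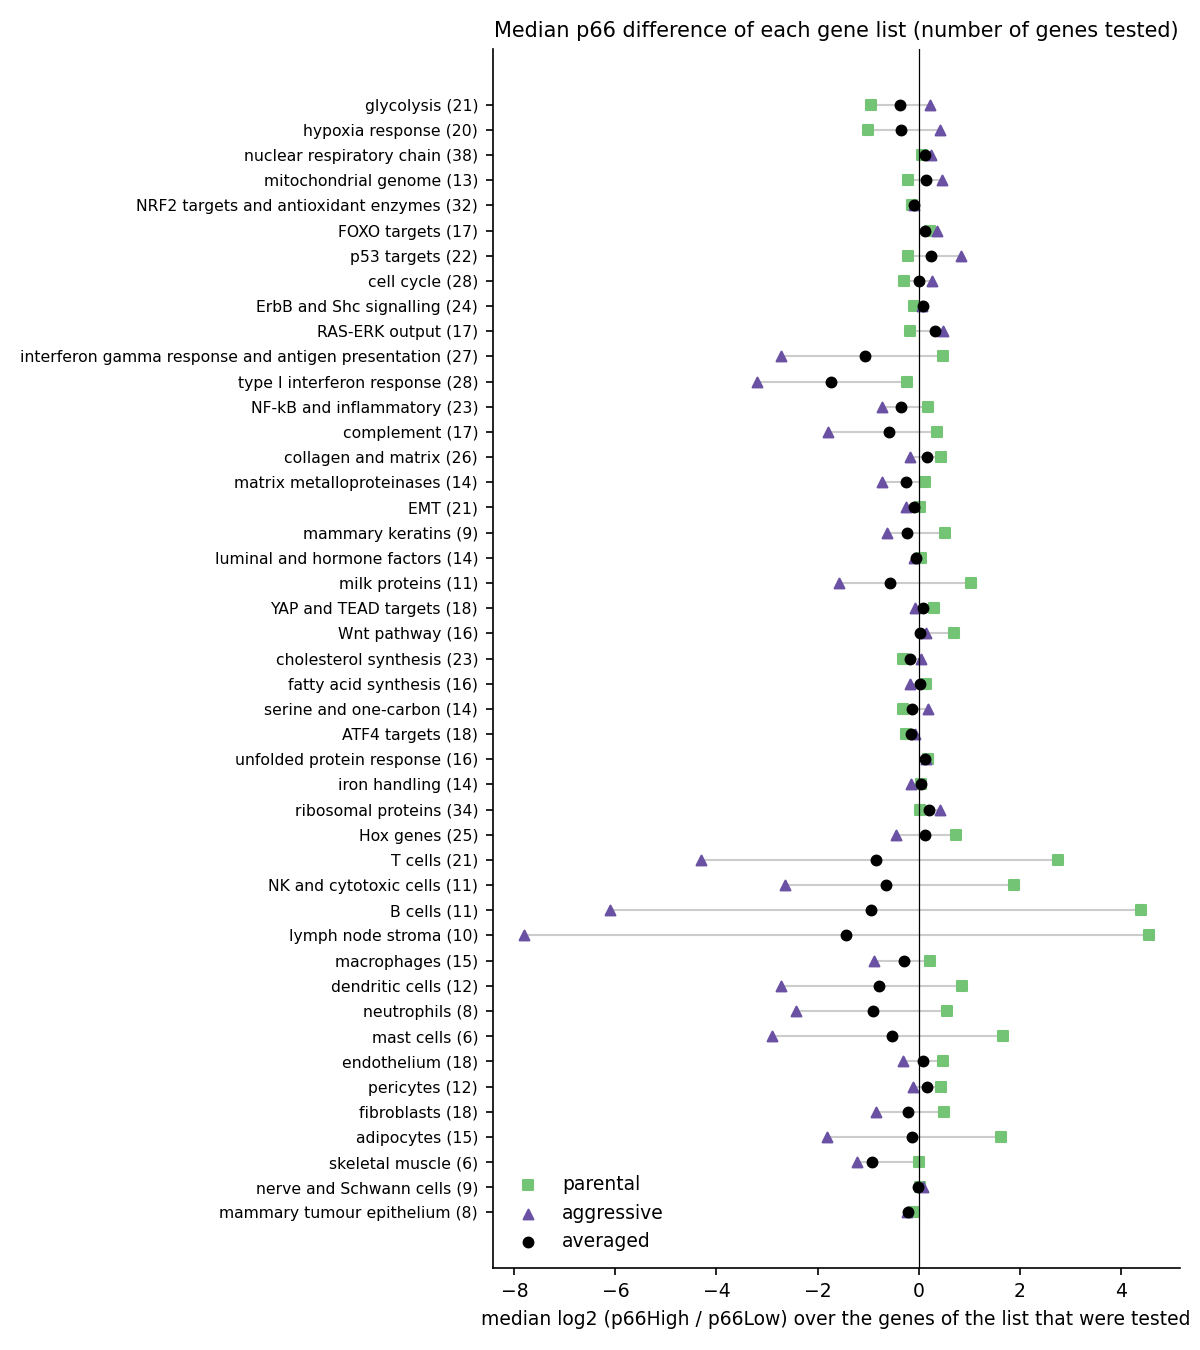
For each gene list the median log2 difference between p66High and p66Low tumours over its tested genes is shown for parental (squares) and aggressive tumours (triangles) and averaged (circles). Interferon lists lie far to the left in aggressive tumours at -3.20 and -2.73, and lymphocyte and lymph node lists lie on opposite sides of 0 in the 2 states.

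Few cell type markers passed averaged over the states, while many immune markers were lower in p66High aggressive tumours. In edgeR 20 of 21 T cell, 9 of 11 NK cell and 10 of 11 B cell genes were lower there. Of all genes tested, 12.1% were lower there. Of macrophage, dendritic cell and neutrophil genes, 10 of 15, 8 of 12 and 8 of 8 were lower there. Limma-voom called 4 T cell, 9 NK cell, 0 B cell, 10 macrophage, 5 dendritic cell and 4 neutrophil genes lower. For each of these lists fewer genes were lower in edgeR with the 3 lymph node-rich libraries left out, which leaves 1 p66Low aggressive tumour. In parental tumours edgeR called 2 NK cell genes and 1 macrophage gene higher. In edgeR 0 of 21 T cell, 0 of 11 NK cell and 0 of 11 B cell genes passed averaged. With an unadjusted p under 0.05 there were 2 T cell, 0 NK cell and 0 B cell genes, and DESeq2 called 1 T cell gene. Without p66High parental tumour 3, 4 T cell genes were lower, and 2 were lower without p66Low aggressive tumour 3. The median T cell difference was 2.75 in parental and -4.31 in aggressive tumours, with summed levels of 78.2 CPM in p66High parental tumour 3, 270 and 432 CPM in p66Low aggressive tumours 1 and 2, 65.9 CPM in p66Low aggressive tumour 3 and 4.10 to 21.9 CPM in the other 8. The summed B cell level was 57.3, 194 and 252 CPM in the 3 libraries rich in lymph node genes and 6.41 to 18.2 CPM in the other 9. Summed macrophage genes lay between 507 and 1420 CPM in p66Low and between 309 and 844 CPM in p66High tumours, and 1 of 15 was lower (0 to 3 when 1 tumour was left out). No gene of the 18 endothelial, 18 fibroblast, 15 adipocyte, 6 mast cell or 6 skeletal muscle markers passed in edgeR. At an unadjusted p under 0.05 there were 1, 3, 2, 1 and 1, DESeq2 called 1 adipocyte and 1 mast cell gene, and limma-voom 1 mast cell gene. Without p66Low aggressive tumour 3, 2 fibroblast genes were lower, whereas with the 3 lymph node-rich libraries left out 2 fibroblast genes and 1 adipocyte gene were higher and 1 T cell gene was lower. The part of these cell types in the interferon differences was not tested. Mammary tumour epithelium genes lay between 2410 and 3210 CPM in p66Low and between 2190 and 2730 CPM in p66High tumours.

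A total of 111 genes passed in both states with opposite signs, 52 higher and 59 lower in p66High parental tumours. Only 5 of them passed in the averaged comparison. Sftpd, surfactant protein D, was at 0.104 to 0.540 CPM in p66Low parental and 2.77 to 5.38 CPM in p66High parental tumours. In aggressive tumours it was at 3.33 to 4.27 CPM (p66Low) and 0.152 to 0.259 CPM (p66High). The groups did not overlap in either state, and the averaged difference was -0.25 (adjusted p = 0.679), with an interaction of -7.80 (adjusted p = 0.000464). Reep1, a shaping protein of the endoplasmic reticulum, differed by 1.5 before and -5.05 after selection (averaged -1.77, adjusted p = 0.000829), and Dpysl5, a neuronal cytoskeletal protein, by -3.25 and 2.71. Vmn2r96, a vomeronasal receptor gene of a family with many near-identical copies, differed by 2.20 and -4.81 (averaged -1.30, adjusted p = 0.0475). Cd7 and Ncr1, genes of T and NK cells, were higher in p66High parental tumours (2.23 and 3.13) and lower in p66High aggressive tumours (-3.55 and -2.12), the same sides of 0 as the lymphocyte lists.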

How the data were processed

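Bulk RNA of 12 mammary tumours was measured by stranded, ribosomal RNA-depleted sequencing, per the labels' protocols. The authors deposited whole-number read counts per gene, not normalized. The submitters' processing notes name Trimmomatic 0.32, STAR 2.3.0e, featureCounts 1.4.4 and mm10. The sources used here do not give the annotation or the strand and multi-mapping settings, so genes with near-identical copies or antisense partners are uncertain. Symbols are those of the deposited table, and coordinates are from GENCODE (GRCm38), which matched 37607 of 39017 gene identifiers (96.39%). Promoter sequences are from RefSeq (GRCm38.p6). Tumours of the same group differed by more than sampling noise in every pair (lowest chi-square per degree of freedom 19.1).

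Counts were filtered with filterByExpr, scaled by TMM and fitted with a 4-group model in edgeR 4.0.16 (R 4.3.3, quasi-likelihood F-test, 8 residual degrees of freedom). Benjamini-Hochberg adjustment ran over the 19370 genes tested, with a threshold of 0.05, and the SE is the absolute log2 difference over the square root of F. The averaged comparison is the mean of both p66High groups against the mean of both p66Low groups. Floors and limits from a count of 3 cover counting error only. Simulated counts with 200 changed genes were used to test the scripts.

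Named genes were Shc1, Erbb2, the protein-coding genes with the 12 highest and 12 lowest differences that passed in the averaged, parental and aggressive comparison (no overlap of 6 against 6 tumours, at least 2 CPM in the higher group), of those with at least 20 CPM over 12 tumours the 5 highest and 5 lowest by the smaller of the parental and aggressive difference, up to 4 called members of each gene list by smallest p, and the 6 largest opposite changes. Some genes the rule took are not reported here, and genes outside it are said to be so. The 45 gene lists, 30 of pathways and 15 of cell types, and the comparisons were chosen with earlier results of these data known. Alternatives were other scalings and filters, DESeq2 1.42.0, limma-voom (3.58.1), an additive model, sums of tumours with a shared title number, and leaving out each tumour or the libraries with over 20 CPM of lymph node genes.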

Additional observations from a re-analysis of the deposited data

Results flagged for a closer look

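The p66 difference itself differed between aggressive and parental tumours for 47 of the 102 genes named, by the interaction test of the edgeR fit (adjusted p under 0.05). The values in parentheses are the log2 difference in aggressive tumours minus that in parental tumours. Among genes past the threshold in both states with one sign, the p66 difference moved for Sox14 (6.02), Igf2bp2 (-1.90), Clic6 (-4.31), Stac2 (-2.41), Cntnap2 (3.21), Serpini1 (-2.97) and Akr1b8 (1.03). Sox14 had no count in p66Low aggressive tumours, so its fitted value depends on the prior count and is no bound.

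Interferon, antigen presentation, inflammatory and complement genes had a more negative difference in aggressive tumours, with Oas3 (-3.79), Oas2 (-3.37), Ifit2 (-2.94), Trim30a (-3.32), Ciita (-3.29), Tapbp (-1.78), B2m (-3.72), Il1b (-2.39), Relb (-1.52), Cxcl1 (-1.62), Cfb (-3.20) and Cd55 (-2.13). Genes of the p53 pathway had a more positive one, with Cdkn1a (3.88), Phlda3 (2.45), Eda2r (2.77), Ddit4l (1.72) and Ccng1 (0.86). The FOXO target gene Gadd45a also did (0.95), but of the 17 FOXO targets 1 passed the interaction test higher and 1 lower. Most of the glycolysis and hypoxia genes named had a more positive difference, with Car9 (2.84), Mxi1 (1.63), Ldha (1.31) and Hk1 (0.82), while Pfkfb4 had -1.62.

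The remaining values were those of Hoxa10 (3.57), Hoxa9 (2.3), Wif1 (-2.96), Lgr5 (1.97), Dusp4 (1.66), Sod1 (-0.58), Wap (-4.50), Cldn3 (-2.21), Twist1 (0.98), Ankrd1 (-2.98) and Nt5e (-1.98). The genes with opposite signs in the 2 states, chosen for that pattern, were Sftpd (-7.80), Vmn2r96 (-7.02), Reep1 (-6.55), Dpysl5 (5.97), Cd7 (-5.79) and Ncr1 (-5.25). Summed lymph node stroma genes were at 59.0 CPM in p66High parental tumour 3 and at 196 and 268 CPM in p66Low aggressive tumours 1 and 2, and the part of these libraries in the values was not tested gene by gene. With the 3 left out, 335 genes passed the interaction test in place of 2395.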

How the results depend on the processing

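The number of genes past the threshold in the averaged comparison was 3030, and it stayed within 1.5 times of that except for 1844 in an additive model of p66 and selection, whose error holds the difference between states, and 1486 with the 3 libraries rich in lymph node genes left out, which leaves 1 p66Low aggressive tumour. The parental count of 1565 was 2549 with DESeq2, 908 when tumours with a shared title number were summed and 838 with the 3 libraries left out. The aggressive count of 4077 was 1075 with those libraries left out. The interaction count of 2395 was 1179 with summed tumours and 335 with the libraries left out. The 596 genes called in all 3 comparisons were 394 with summed tumours and 186 with the libraries left out. Without each tumour in turn, the averaged count was 2266 to 3183, the parental count 871 to 1927, the aggressive count 2438 to 4502, the interaction count 1179 to 3278 and the count in all 3 comparisons 399 to 635. Apart from fewer tumours and the error term named here, the cause was not tested. Of the 596 genes, between 64.6% and 88.8% were called again without each tumour in turn, 98.8% with DESeq2, 94.0% with limma-voom and 29.4% with the libraries left out.

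Of 95 named genes that passed in the averaged comparison, 51 passed under all 22 alternatives, 44 did not pass under at least 1, and none reversed in sign. The share of higher genes among the averaged calls was 51.4%, with a range of 47.9% to 53.1% under the other scalings and limma-voom, 46.7% with DESeq2 and 58.8% in the additive model. The rule for libraries rich in lymph node genes was written for 10 genes. With Fcgbp, which was high in every tumour, it would have removed all tumours and was not run, so it was applied to the other 9, a choice made after seeing the data. No paired analysis was possible because the labels give the groups no shared replicate numbers. Precision was limited by 3 tumours per group, and fitted differences of genes with 3 counts or fewer in a group depend on the prior count.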
